A study of Rattus norvegicus with 10 samples.

Results

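Gfap, Vim, Nes and Synm encode the intermediate filament proteins of glia: glial fibrillary acidic protein, vimentin, nestin and synemin. They were followed here as every probe set that the platform annotation gives to exactly 1 of these 4 gene symbols, which came to 4 of the 14218 genes with such a probe set and 6 of the 31099 probe sets on the array. Gfap, Vim and Nes had 1 probe set each and Synm had 3. RNA came from the neurointermediate lobe of the pituitary of rats dehydrated for 3 days and of control rats, all male Sprague Dawley animals of 10 to 12 weeks with no other treatment or genetic change in the labels. There were 5 arrays per group, with RNA pooled from 5 animals on each, so that the replicate is the pool and the spread between single rats was not measured. The tissue is given as the neurointermediate lobe by the title and by all sample labels, which were followed here, and as the supraoptic nucleus by the design text of the series.

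Intermediate filaments are the rope-like polymers of the cytoskeleton. GFAP is the filament protein that marks astrocytes and is known for increasing when astroglia become reactive. Vimentin forms the filaments of immature and many mature glia, and also those of endothelial cells and fibroblasts. Nestin is carried by progenitor cells, by reactive glia and by some blood vessel cells, and synemin is a large partner protein that is built into filaments of vimentin or desmin. In the neural lobe these proteins are found in pituicytes, the astroglia-like cells that surround the axon endings of vasopressin and oxytocin neurons and are known to change shape when a rat is deprived of water.

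The 250 bases before the annotated start of Gfap and of Vim are shown, Gfap because its transcript changed most among the 4 genes and Vim because it is the other main filament gene of the same cells. They are credited to the RefSeq tables of build GRCr8, run 5′ to 3′ on the gene's own strand, and lie at chr10:88361662-88361911 on the minus strand for Gfap and chr17:81577011-81577260 on the plus strand for Vim. Capitals mark every match to the motifs named after the sequences.
Gfap: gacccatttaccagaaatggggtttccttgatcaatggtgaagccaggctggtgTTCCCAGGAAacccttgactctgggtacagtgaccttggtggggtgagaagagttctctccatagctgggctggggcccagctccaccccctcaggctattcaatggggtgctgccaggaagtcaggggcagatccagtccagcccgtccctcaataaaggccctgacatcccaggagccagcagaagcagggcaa
Vim: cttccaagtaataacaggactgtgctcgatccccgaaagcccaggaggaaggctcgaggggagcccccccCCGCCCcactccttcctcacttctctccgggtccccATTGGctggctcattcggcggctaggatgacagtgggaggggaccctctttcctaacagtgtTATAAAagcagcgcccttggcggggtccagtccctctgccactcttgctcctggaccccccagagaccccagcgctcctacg
The motifs were searched on both strands, and all matches were marked, also where motifs overlap. The STAT-type motif with a spacer of 4 bases, TTCNNNNGAA, was found in the Gfap window, 196 to 187 bases before the start, and in 6.25% of all 33469 promoter windows of that length in the table. The Vim window held a TATA box (TATAAA, in 12.9% of all windows), a CCAAT box (CCAAT, 34% of all windows) and an Sp1 motif (GGGCGG, 30.5% of all windows). No match to the STAT-type motif with a spacer of 3 bases (TTCNNNGAA, 7.67% of all windows), to AP-1 (TGANTCA, 6.34%) or to nuclear factor I (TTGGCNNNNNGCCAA, 0.0359%) was found in the windows of the 4 genes. Nes had 2 Sp1 matches and Synm 1 CCAAT box. These matches describe the letters of the windows, and binding was not measured.

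Markers listed for the lobe's own cells were read on the arrays. Scg5 was the brightest of the melanotroph markers, averaging 3189 in dehydrated and 2986 in control pools, and so made up much of their sum. Pomc averaged 735 in dehydrated and 755 in control pools, and Pcsk2 391 and 715. Markers fixed for melanotrophs, the endocrine cells of the intermediate lobe, summed to a signal of 5404 to 6974 on dehydrated and 6280 to 6582 on control arrays over 5 measured genes, and 11 pituicyte and astroglia markers without Gfap summed to 6863 to 7682 on dehydrated and 6627 to 7178 on control arrays. Hormone genes of the neighbouring anterior lobe were also measured, at 4824 to 9379 on dehydrated and 2574 to 7950 on control arrays over 6 genes, and no tested marker of these 3 lists was at 0 on any array. The ratio of 3′ to 5′ signal of the GAPDH and beta-actin controls, which increases as RNA is shortened, was 1.61 to 2.67 on dehydrated and 1.26 to 2.52 on control arrays on the log2 scale (exact two-sided permutation p = 0.214). Dehydrated 5 had the lowest ratio of its group and control 1 the highest of its own. The authors' signals are linear and were already scaled to a common mean per array, so that every change is measured against the array's average. Since the arrays read whole tissue, fewer cells of a type and less RNA per cell cannot be told apart.

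Gfap (Entrez Gene 24387, probe set 1368353_at) was higher in every dehydrated pool than in every control pool. Its signal was 289.5, 247.6, 489.6, 429.1 and 521.5 on dehydrated arrays 1 to 5 and 91.6, 58.7, 56.6, 52 and 97.0 on control arrays 1 to 5. The lowest dehydrated array, dehydrated 2, still lay 2.55 times above the highest control array, control 5. Dehydrated pools averaged 395 ± 121 and control pools 71.2 ± 21.3 (SD, n = 5), and the SD was 30.7% of the mean in dehydrated and 30.0% in control pools, so that the pools of both groups scattered to a like degree relative to their level. On the log2(signal + 5) scale Gfap rose by 2.38 ± 0.21 (SE), a 5.20-fold change with a 95% interval of 3.85 to 7.04 (limma over all 18625 tested probe sets, adjusted p = 5.30e-06). Among those probe sets, 2.46% passed an adjusted p of 0.05 in either direction and 1.68% passed upward, and 4.59% had groups that did not overlap. Among the tested probe sets, ordered by log2 change, the increase of Gfap was the second, after that of Galp, which encodes a peptide of pituicytes and rose by 2.96. Of the 4 filament genes, Gfap alone passed the test.

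The RNA measure and the anterior lobe level also varied among the arrays on which Gfap was read. The log2 ratio of 3′ to 5′ signal was 2.27, 2.67, 2.15, 2.05 and 1.61 on dehydrated arrays 1 to 5 and 2.52, 1.68, 1.51, 1.91 and 1.26 on control arrays 1 to 5. The array with the highest ratio had the lowest Gfap of its group in the dehydrated group (dehydrated 2) and the second highest in the control group (control 1). The mean log2 signal of the anterior lobe markers was 8.75, 9.66, 9.19, 8.82 and 8.84 on dehydrated and 8.74, 8.71, 9.55, 9.24 and 7.97 on control arrays 1 to 5. The arrays with the lowest anterior lobe level, dehydrated 1 and control 5, had the second lowest Gfap of the dehydrated and the highest of the control group. Those with the highest level, dehydrated 2 and control 3, had the lowest Gfap of the dehydrated and the second lowest of the control group. When the fit also held the 3′ to 5′ ratio as a term, Gfap changed by 2.51 (limma adjusted p = 1.65e-06), and when it held the anterior lobe level instead, an alternative added after the data were seen, by 2.49 (adjusted p = 9.44e-07). Without dehydrated 5 and control 1 together it was 2.36 (adjusted p = 8.63e-06).

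Vim (Entrez Gene 81818, probe set 1367574_at) was among the brightest probe sets of the lobe, above 98.2% of all probe sets, and its difference between the groups did not pass the test. Its signal was 1037, 1042, 1160, 1335 and 1089 on dehydrated arrays 1 to 5 and 1073, 929, 967, 970 and 854 on control arrays 1 to 5. Control 1 lay above dehydrated 1 and 2, and all other control arrays lay below all dehydrated ones. Dehydrated pools averaged 1133 ± 123 and control pools 959 ± 78.9 (SD, n = 5), with an SD of 10.9% of the mean in dehydrated and 8.23% in control pools. The log2 change was 0.24 ± 0.08 (SE), with a 95% interval of 0.06 to 0.41, and did not pass over all probe sets (limma adjusted p = 0.145). The interval leaves out a change as large as that of Gfap and holds changes between 1.05-fold and 1.33-fold.

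Nes (Entrez Gene 25491, probe set 1386948_at) was dim, above 45.5% of all probe sets, and its groups overlapped at 1 control array. Its signal was 35.3, 50.3, 32.7, 51.5 and 42.6 on dehydrated arrays 1 to 5 and 21.0, 28.1, 8.0, 18.6 and 34.4 on control arrays 1 to 5. Control 5 lay above dehydrated 3, and the other 4 control arrays lay below all dehydrated arrays. Dehydrated pools averaged 42.5 ± 8.51 and control pools 22.0 ± 9.99 (SD, n = 5), with an SD of 20.03% of the mean in dehydrated and 45.4% in control pools. The log2 change was 0.89 ± 0.25 (SE), a 1.85-fold difference with a 95% interval of 1.29 to 2.66, and did not pass (limma adjusted p = 0.0691). It passed without control 5, at 1.05 (adjusted p = 0.0402), with each array centred on its median, at 0.92 (adjusted p = 0.0466), and with the anterior lobe level as a covariate, at 1.02 (adjusted p = 0.0261). Without control 3, the array with the lowest signal, the change was 0.65 (adjusted p = 0.141), and detection calls that would show which arrays read Nes above background were not used here.

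Synm (Entrez Gene 308709) was read by 1 bright and 2 dim probe sets. On the bright one, 1372658_at, the signal was 268.1, 204.9, 186.7, 261.7 and 241.9 on dehydrated arrays 1 to 5 and 329.6, 209.5, 237.4, 266.1 and 228.8 on control arrays 1 to 5. The groups lay over each other, with the highest value on control 1 and the lowest on dehydrated 3. Dehydrated pools averaged 233 ± 35.6 and control pools 254 ± 46.8 (SD, n = 5), a log2 change of -0.12 ± 0.12 (SE, limma adjusted p = 0.665) with a 95% interval of -0.38 to 0.14.

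The other Synm probe sets, 1398113_at and 1376604_at, were below the filter on dim probe sets and were not tested in the same fit. On 1398113_at the signal was 3.0, 14.3, 11.4, 5.4 and 10.2 on dehydrated arrays and 7.2, 2.7, 7.2, 2.0 and 0.9 on control arrays, and on 1376604_at it was 1.3, 3.1, 5.2, 1.4 and 6.1 on dehydrated arrays and 3.4, 7.0, 2.9, 1.8 and 5.2 on control arrays. Both sets of groups overlapped. In a fit with no filter, in which 1.03% of 31042 probe sets passed, the log2 changes were 0.62 ± 0.29 and -0.12 ± 0.22 (SE, limma adjusted p = 0.391 and 0.886). The 3 probe sets of Synm therefore gave 1 readable level and no passing change.

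**Figure D1:**
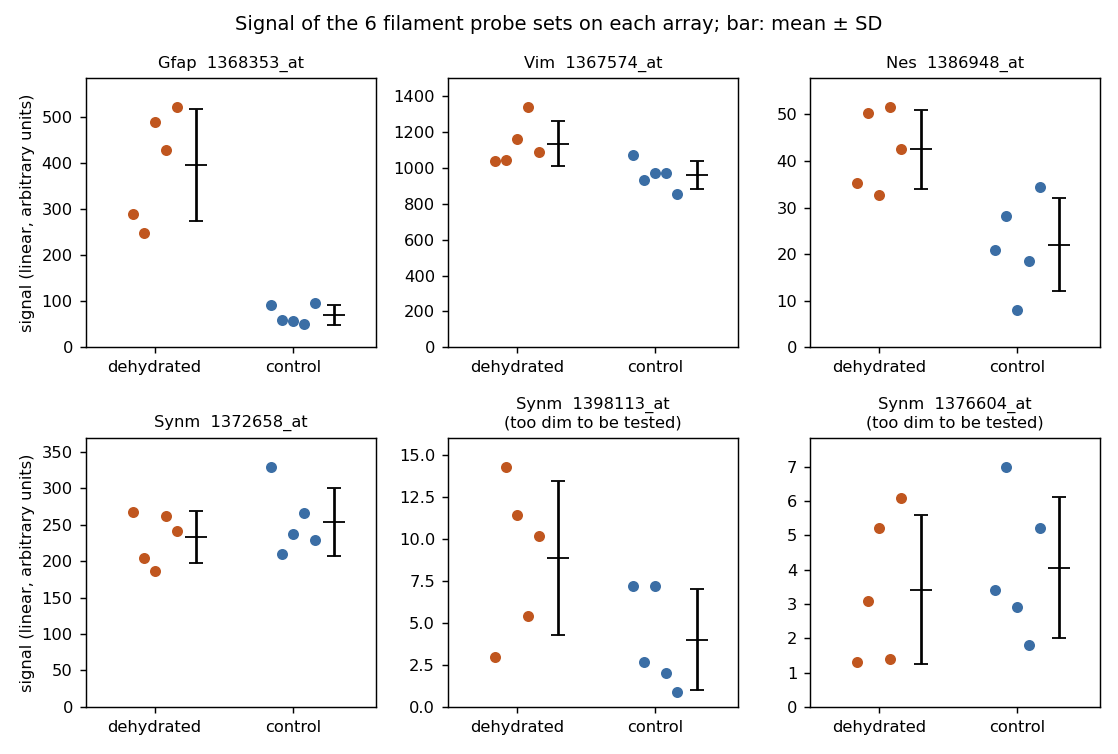
Linear signal in arbitrary units of the 6 probe sets of Gfap, Vim, Nes and Synm on the 5 dehydrated and 5 control arrays, each point 1 array and the bar the mean ± SD, with a separate axis from 0 for each probe set. Gfap is the panel in which the groups stand apart, from 247.6 to 521.5 on dehydrated arrays and 52 to 97.0 on control arrays, while the groups of the other 5 probe sets overlap.

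Whether the change of Gfap differed from that of its partners was tested on the difference between probe sets within each array. This takes off most of what scales both alike, but less of it for the dim Nes, because 5 was added to every signal. Relative to the control mean of the same difference, Gfap minus Vim lay between 1.65 and 2.65 on dehydrated arrays and between -0.39 and 0.63 on control arrays. The log2 change of Gfap exceeded that of Vim by 2.14 ± 0.26 (SE, n = 5, exact two-sided permutation p = 0.00794, adjusted p = 0.0119 over the 3 pairs), with no overlap of the groups. The smallest p that 5 against 5 arrays allow is 0.00794.

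Gfap minus Synm lay between 1.90 and 3.16 on dehydrated and between -0.46 and 0.60 on control arrays, again without overlap. The log2 change of Gfap exceeded that of Synm by 2.50 ± 0.29 (SE, n = 5, exact two-sided permutation adjusted p = 0.0119). Gfap minus Nes lay between 0.65 and 2.17 on dehydrated and between -0.60 and 0.70 on control arrays, and here the groups overlapped. The log2 change of Gfap exceeded that of Nes by 1.49 ± 0.35 (SE, n = 5, exact two-sided permutation adjusted p = 0.0159). Without dehydrated 5 and control 1 together the excess over Nes was 1.47 and did not pass (exact permutation adjusted p = 0.0571). Those over Vim and Synm passed, each at an adjusted p of 0.0429. Fewer arrays give fewer splits and so a larger smallest p, and the lost call does not show a smaller excess.

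**Figure D2:**
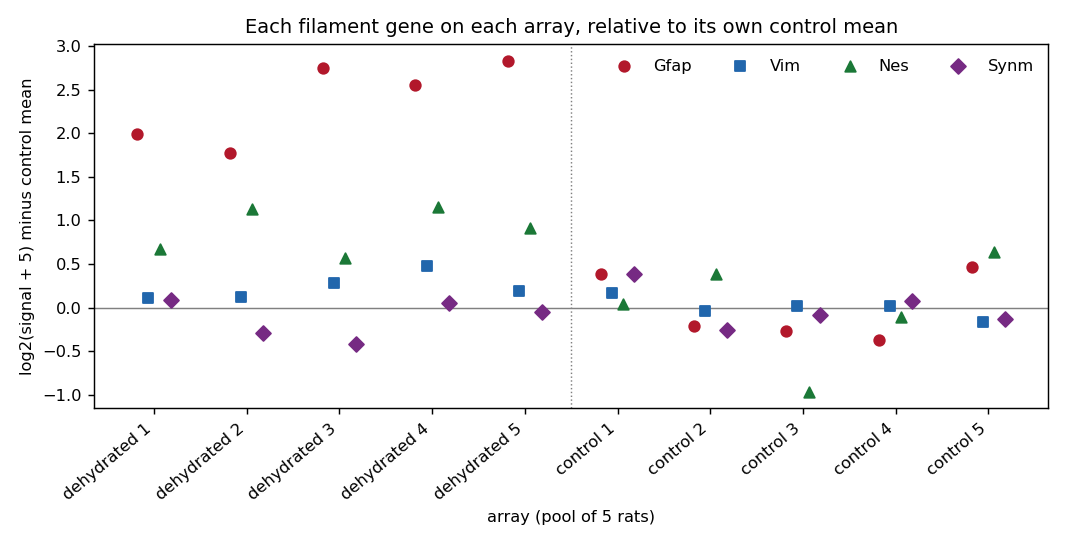
Log2(signal + 5) of Gfap, Vim, Nes and Synm on each array minus the same gene's mean over the control arrays, with the 5 dehydrated arrays left of the 5 control arrays, each from a pool of 5 rats. Gfap lies at 1.77 to 2.83 on dehydrated arrays, Nes at 0.57 to 1.16, and Vim and Synm stay within 0.48 of 0.

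The scatter of the filament genes from pool to pool within the groups was also compared. With each group's mean taken off, Pearson's r over the 10 arrays was 0.29 between Gfap and Vim, 0.25 between Gfap and Nes, 0.13 between Gfap and Synm, 0.46 between Vim and Synm, -0.16 between Vim and Nes and -0.05 between Nes and Synm, given as a description. By the same measure the genes most like Gfap were Reln, an extracellular protein of neuronal migration, at r = 0.96, the deubiquitinase gene Bap1 at 0.94, the phosphatase regulator gene Ptpa at 0.93, Gmfg at 0.92 and the stress-response phosphatase subunit gene Ppp1r15a at 0.92. Their log2 changes between the groups were -0.34, -0.21, -0.15, 0.25 and -0.19, none of which passed (limma, smallest adjusted p = 0.250), so that these genes were alike in their scatter among pools.

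For Vim the genes most alike were Tsc22d3, a glucocorticoid-induced leucine zipper gene, at r = 0.98, followed by Ankrd12, Elp2, Mrps30 and Stard3nl at 0.93 to 0.91. For Nes they were Dtl, Csnk1a1, Tmem63c, Slx4ip and Ctc1 at 0.91 to 0.88, and for Synm Chodl, Fam8a1, Cipc, Pon3 and Nrsn1 at 0.92 to 0.89. None of these 15 passed between the groups either. The highest of so many genes over 10 arrays is high in any case, and the arrays share their scaling, so these values rank genes and say no more.

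Of the other members of the intermediate filament family, none of 12 tested passed upward, which is near the background for so few genes. Of 14 listed genes 12 were bright enough to be tested, of which none rose, 1 fell and 11 did not pass, beside 2.31% of all 10593 genes that rose and 0.878% that fell, counting 1 probe set per gene. The median log2 change of the 12 was -0.15, against 0.01 over all genes, and 4 of them had a positive change. The gene that fell was Krt8, a keratin of epithelial and endocrine cells, whose signal was 275.8 to 409.2 on dehydrated and 414.6 to 528.1 on control arrays (log2 change -0.48 ± 0.10 SE, limma adjusted p = 0.0180). Its call ended with no intensity trend in the fit and when dehydrated 3, control 3 or control 5 was left out (highest adjusted p = 0.0709). The melanotroph gene Pcsk2, described with the cell type markers below, was also lower. The other melanotroph markers Drd2, Scg5, Pomc and Tbx19 gave -0.08, 0.08, -0.09 and -0.01 and did not pass, and a link to Krt8 was not tested. Krt18, the partner keratin gene of Krt8, had 661 ± 61.4 in dehydrated and 719 ± 55.3 in control pools (SD, n = 5, log2 change -0.12).

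The neurofilament genes, which belong to the axons that end in the lobe, gave log2 changes of -0.21 for Nefl, -0.21 for Nefm and -0.19 for Nefh, and Ina, another filament gene of neurons, gave 0.10 (limma adjusted p 0.492 to 0.743). The dimmer probe sets of Nefl and Ina had log2 changes of 0.02 and -0.10 (adjusted p = 0.981 and 0.719 in the fit with no filter), so that the 2 probe sets of Ina differed in sign, as did those of Nefl. Des, the filament of muscle and pericytes and a partner of synemin, gave 0.26 ± 0.17 (SE, adjusted p = 0.445), and the nuclear lamin gene Lmna gave 0.18 ± 0.15 (SE, adjusted p = 0.562), with -0.07 on its dimmer probe set. Prph, which encodes peripherin, was too dim to be tested, at 13.2 ± 3.96 in dehydrated and 13.7 ± 4.49 in control pools (SD, n = 5). Among the proteins that tie filaments to other structures or modify them, 1 of 14 tested genes rose and none fell (2.31% and 0.878% of all genes), with a median log2 change of -0.03. It was Hspb1, a small heat shock protein that binds filaments, with 473 ± 52.8 in dehydrated and 299 ± 18.9 in control pools (SD, n = 5, log2 change 0.65 ± 0.09 SE, adjusted p = 0.000442). Plec, which encodes the main linker plectin, had 92.0 ± 15.99 in dehydrated and 95.8 ± 18.4 in control pools (SD, n = 5), a log2 change of -0.05 that did not pass.

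**Figure D3:**
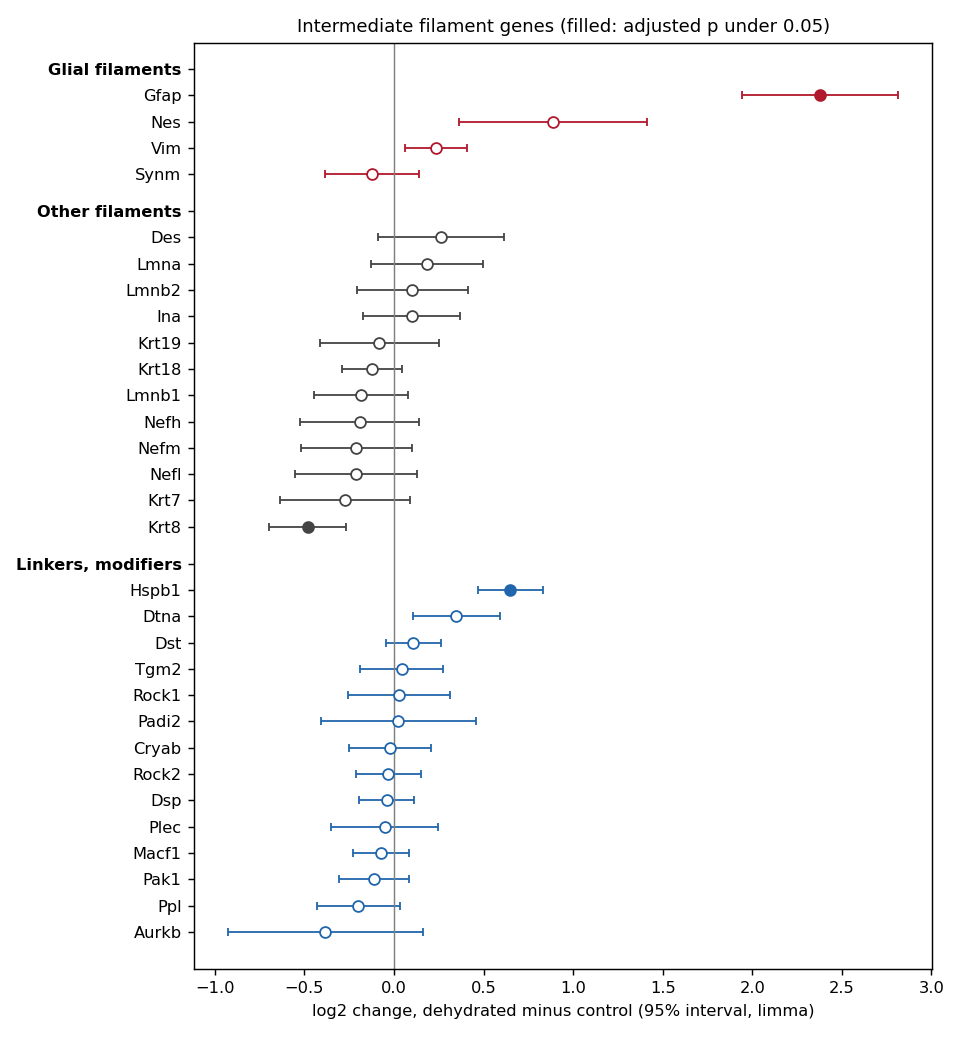
Log2 change, dehydrated minus control, with the 95% interval from limma for the 4 glial filament genes, 12 other intermediate filament genes and 14 genes of filament linkers and modifiers, with filled points for an adjusted p under 0.05. Gfap at 2.38 lies beyond all others, and besides it Hspb1 at 0.65 and Krt8 at -0.48 are filled.

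General markers of pituicytes and astroglia gave smaller changes than Gfap. Of 14 listed markers 11 were tested, Slc1a2 and Aldh1l1 being too dim and Sox9 having no probe set with its symbol alone. Of the 11, 2 rose, none fell and 9 did not pass, with a median log2 change of 0.07. The shares of all genes were 2.31% that rose and 0.878% that fell. Lhx2, a transcription factor of pituicytes, had 628 ± 39.0 in dehydrated and 477 ± 30.9 in control pools (SD, n = 5, log2 change 0.39, limma adjusted p = 0.00564). The glutamate transporter gene Slc1a3 had 1301 ± 38.7 in dehydrated and 1016 ± 73.5 in control pools (SD, n = 5, log2 change 0.36, adjusted p = 0.00694). Its dimmer probe sets gave 0.15 and -0.39 and did not pass, and its call ended without an intensity trend (adjusted p = 0.0509). S100b, a calcium-binding protein of the same cells, gave -0.21 ± 0.11 (SE, adjusted p = 0.317), and the water channel gene Aqp4 gave -0.22 ± 0.14 (SE, adjusted p = 0.442). The highest upper bound among the 95% intervals of the 11 markers was that of Lhx2 at 0.54, below the lower bound of 1.94 for Gfap.

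Several genes listed for reactive astroglia, the state of astroglia in injured brain, rose. Of 30 listed genes only 19 were tested. Serpina3n, Cxcl10, Aspg, Tgm1, Clcf1 and Ptgs2 were too dim, and the others left out had no probe set with their symbol alone. Of the 19 tested, 7 rose, none fell and 12 did not pass, beside 2.31% of all genes that rose. A positive change was seen in 17, and the median was 0.32. The secreted lipocalin Lcn2 had 830 ± 200.2 in dehydrated and 212 ± 29.3 in control pools (SD, n = 5, log2 change 1.92, limma adjusted p = 1.27e-06), and Chi3l1, a chitinase-like protein, had 1013 ± 155 in dehydrated and 309 ± 27.2 in control pools (SD, n = 5, log2 change 1.69, adjusted p = 8.61e-08). S100a6, a calcium-binding protein, rose by 1.24, the pattern receptor gene Cd14 by 0.95, Hspb1 by 0.65 and the membrane protein gene Emp1 by 0.63 (adjusted p at most 0.00906). These genes are also made by immune, vascular or connective tissue cells, and the list had been drawn up with earlier results of these data known. Timp1, S100a10 and Cd44, other members of the list, gave 0.44, 0.32 and 0.36 and did not pass (adjusted p = 0.0527, 0.0589 and 0.278). Lgals3 and Sphk1, also on the list, went the other way at -0.26 and -0.15 and did not pass either (limma adjusted p = 0.226 and 0.674). The genes that did not pass were named after their values were seen.

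Transcripts of genes listed as regulators of Gfap were measured beside it. They were genes of the cytokine pathway known to drive Gfap, from the receptor subunit gp130 to the transcription factor STAT3. Genes of BMP signalling and of nuclear factor I were on the same list. Of 13 tested genes 0 passed in limma and 0 had an unadjusted p under 0.05, and the median log2 change was -0.05. With 2.31% of all genes rising and 0.878% falling, a count of 0 among 13 is near the background. Stat3 itself had 260.3 ± 23.8 in dehydrated and 260.7 ± 24.5 in control pools (SD, n = 5, adjusted p = 0.993), with a 95% interval of -0.19 to 0.18 for the log2 change, and its dimmer probe set gave -0.10. The smallest p was that of the BMP receptor gene Bmpr1a, with a log2 change of 0.22 ± 0.11 (SE, adjusted p = 0.299). Socs3, a feedback gene that STAT3 switches on, was too dim to be tested, with 11.5 ± 7.39 in dehydrated and 3.54 ± 3.62 in control pools (SD, n = 5). Of the 19 listed genes Lifr, Lif, Il6 and Clcf1 were also too dim, and Osmr had no probe set with its symbol alone. The pathway was therefore covered in part, and the activity of its proteins was not measured. Without dehydrated 5 and control 1 together 1 gene passed, the transcription factor gene Nfib at -0.25 (adjusted p = 0.0437), named after its value was seen.

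**Figure D4:**
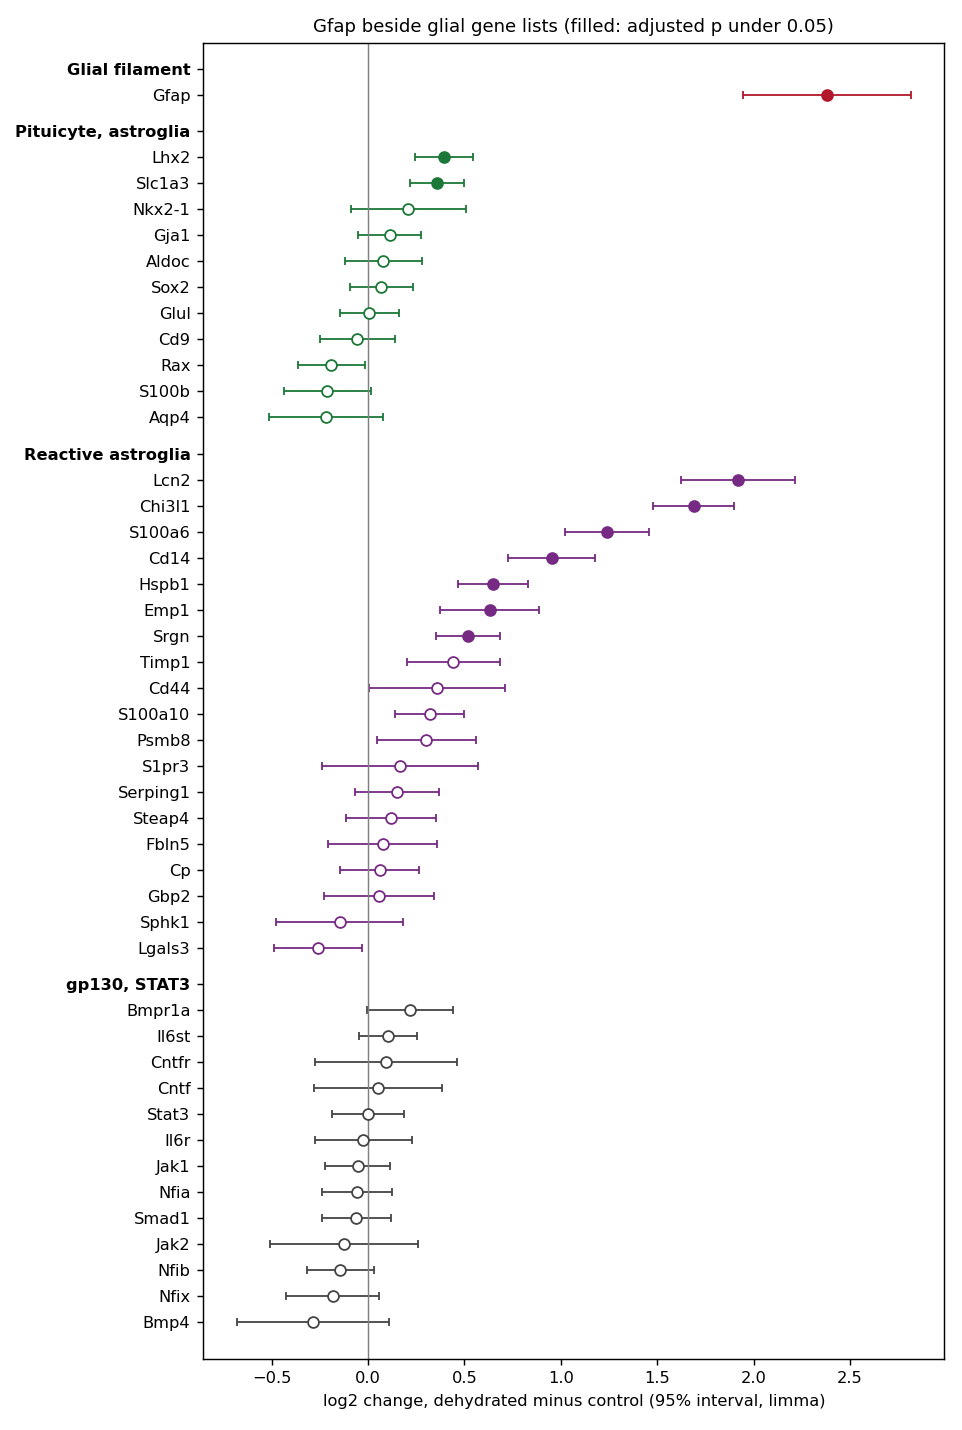
Log2 change, dehydrated minus control, with the 95% interval from limma and filled points for an adjusted p under 0.05. Shown are Gfap, 11 pituicyte and astroglia markers, 19 genes listed for reactive astroglia and 13 genes listed as regulators of Gfap. The last list holds genes of gp130 and STAT3 signalling, BMP signalling and nuclear factor I. Lcn2 at 1.92 and Chi3l1 at 1.69 come nearest to Gfap at 2.38, and no gene of the last list is filled.

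Some markers of other cells that carry vimentin, nestin or synemin passed the test and others did not, and their part in the changes of these 3 genes was not tested. The counts stand beside 2.31% of all genes that rose and 0.878% that fell. Of 6 endothelial markers 3 rose and none fell, and their summed signal was 1132 to 1410 on dehydrated and 761.9 to 1012 on control arrays. Kdr and Flt1, receptors of vascular endothelial growth factor, rose by 0.63 and 0.90 and the sialomucin gene Emcn by 0.51 (limma adjusted p = 0.00441, 0.0151 and 0.00445), the call of Flt1 ending without dehydrated 3 (adjusted p = 0.0589), while Pecam1 gave -0.01 (adjusted p = 0.985) and Cldn5 -0.05. Other probe sets, too dim to be tested, gave -0.46 for Kdr and -0.23 and -0.10 for Flt1 in the fit with no filter, and did not pass. Of 4 mural cell markers 1 rose, the pericyte gene Rgs5 at 0.72 (adjusted p = 0.000733), beside Acta2 at -0.04, with summed signals of 440 to 505 on dehydrated and 402 to 443 on control arrays. Of 6 fibroblast markers 3 rose and none fell, with summed signals of 4345 to 5234 on dehydrated and 3288 to 3829 on control arrays. They were the matrix genes Postn at 1.24, Lum at 0.55 and Dcn at 0.43, the call of Dcn ending without an intensity trend (adjusted p = 0.0550), while Col1a2 gave -0.17 on its brighter and 0.29 on its dimmer probe set, neither of which passed (adjusted p = 0.344 and 0.0760).

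Beside the same shares of all genes, 2.31% that rose and 0.878% that fell, 1 of 5 microglia markers rose, Aif1 at 0.42 (limma adjusted p = 0.0375), a call that ended without any of 6 single arrays, dehydrated 1, 3 and 4 and control 2, 3 and 5 (adjusted p up to 0.114), and the summed signal was 1007 to 1576 on dehydrated and 959 to 1209 on control arrays. In the remaining marker lists 1 gene each passed, named here after its value was seen: Pcsk2 fell by 0.88 among 5 melanotroph markers, Fshb fell by 0.86 among 6 anterior lobe markers, and Pmp22 rose by 0.42 (0.10 on its other tested probe set) among 2 myelin markers (adjusted p at most 0.00512). The endothelial, mural, fibroblast and microglia lists had no tested marker at 0 on any array.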

How the data were processed

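The intensities were deposited by the authors as 1 linear signal per probe set and array (Affymetrix rat expression arrays). GCOS 1.2 is named in the submitters' processing notes, and its algorithm and scaling are not given in the sources used here. All 10 columns have a mean near 100 after trimming 2% at each end, and no further scaling was applied. Of the 31099 probe sets 57 array controls were left out, and 20826 of the others had 1 gene symbol, 436 several and 9780 none. Signals were taken as log2(signal + 5), and the 60% with the highest mean, 18625, were tested with limma 3.58.1 in R 4.3.3 (eBayes with an intensity trend, two-sided, Benjamini-Hochberg adjustment over all of them). A fold change is on the log2(signal + 5) scale, which understates the change of dim genes. A gene in a list was represented by its brightest tested probe set. Single measures were compared by exact permutation, with all 252 splits of the arrays into 5 and 5. The fit was tested on simulated data.

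Filament probe sets were all named; each list gave up to 6 called genes by size or its smallest p, plus a fixed set of further genes, and the 5 genes most like each filament gene were ranked by r within the groups. Members and lists were chosen with earlier results of these data known. Arrays were numbered in deposition order. Nothing says how the pools were batched. Signal over background is unknown.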

Additional observations from a re-analysis of the deposited data

How the results depend on the processing

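Gfap kept its direction and its call under all 22 alternatives, with log2 changes of 2.16 to 2.53 (limma adjusted p up to 0.000361) and 2.27 to 2.53 with 1 array left out. Vim passed under none of its 22, at 0.17 to 0.29 (adjusted p 0.0553 to 0.314), and the bright Synm probe set under none of its 22, at -0.19 to -0.03. Their range with 1 array left out was 0.18 to 0.28 and -0.19 to -0.03. Nes, which the filter to the brightest 40% dropped, passed under 3 of 21: median centring (0.92), without control 5 and, added after the data were seen, the anterior lobe level as a covariate (1.02). Without single arrays it was 0.65 to 1.05. Taken alone with the exact permutation test, unadjusted over the other probe sets, Vim (0.24, p = 0.0238) and Nes (0.89, p = 0.0159) were under 0.05. The excess of Gfap over Vim was 1.93 to 2.30 and over Synm 2.25 to 2.65, with calls kept in all 17 alternatives of each, and over Nes it was 1.32 to 1.70, with the call lost without dehydrated 5 and control 1 together (1.47). With those arrays left out the exact test has fewer splits and a larger smallest p.

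The number of probe sets that passed, 458, was 240 without an intensity trend, 218 to 1156 without single arrays and 1398 without dehydrated 5 and control 1 together. Leaving out dehydrated 1, 3 or 5 gave 301, 218 and 1156, and leaving out control 2, 3, 4 or 5 gave 290, 288, 299 and 304. With each array centred on its median 456 were higher and 113 lower, beside 312 and 146 as scaled by the authors. Among the probe sets called without dehydrated 5, 651 rose and 505 fell. Rises no longer outnumbered falls, 667 against 731, when control 1 was dropped as well. In every other alternative more rose than fell. The shares printed beside the gene lists, 2.31% and 0.878%, are those of the main fit with all arrays. Of the 20 called genes named from the lists, 15 kept their calls throughout. The values of 4 genes that did not pass, Ina, Plec, Stat3 and Pecam1, switched sign in some alternatives. The cause of these shifts was not tested. Dim probe sets, among them Nes and 2 of Synm, limit what can be read, as does the number of arrays. No paired analysis was possible because the labels give no replicate numbers.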
